A study of Sus scrofa with 6 samples.

Results

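The capillary and VEGF genes are a group of 10 genes of the vessel lining and of the growth factors that act on it, taken by name from a table of 17627 pig genes. They are VEGFA, VEGFB, KDR, FLT1, ANGPT1, TEK, TIE1, ENG, PECAM1 and CDH5. A row was found for 8 of them, and VEGFB and CDH5 were not analysed here because no row of the table could be matched to their symbols. Transcripts were sequenced from longissimus dorsi muscle, which runs along the back, in 3 libraries of Wannanhua pigs, a local Chinese breed, and 3 libraries of Yorkshire pigs, a lean commercial breed. All 6 libraries are labelled as 5 months of age, while the design text of the series speaks of piglets, and no treatment or engineered allele is named for either breed. Scaled counts, which are reads multiplied by a factor of each library, summed to between 16373268 and 19250503 in Wannanhua and between 17353859 and 19251335 in Yorkshire libraries. The labels do not state that libraries of a breed came from separate animals, so the p-values cover the spread among these 6 libraries, some of which may be technical.

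Endothelial cells line every capillary of skeletal muscle and share a set of surface proteins by which they are known. VEGFA is secreted by muscle fibres and other cells and binds KDR and FLT1 on the endothelium. KDR is the main signalling receptor, and FLT1 binds VEGFA more tightly but signals weakly. ANGPT1, made mainly by cells around the vessel, activates the receptor TEK, which steadies the vessel wall, and TIE1 is a partner receptor of TEK. ENG is a co-receptor for ligands of the BMP family, and PECAM1 is an adhesion protein of endothelial junctions, also found on platelets and leukocytes. Oxidative muscle fibres are commonly surrounded by more capillaries than glycolytic ones.

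No difference between Wannanhua and Yorkshire muscle in these 8 genes exceeded the spread of the libraries by the test used. In the limma fit across 11791 tested genes, 0 of the 8 passed an adjusted p of 0.05, a call made for 3.05% of all tested genes (1.76% higher and 1.29% lower in Wannanhua). At an unadjusted p under 0.05 stood 0 of the 8, against 22.1% of all tested genes (14.6% higher and 7.53% lower in Wannanhua). The libraries of the breeds overlapped in all 8, while 29.9% of all tested genes showed no overlap between breeds. Their log2 fold changes, taken as Wannanhua minus Yorkshire in log2(FPKM + 1), ran from -0.35 to 0.43, with 5 positive and 3 negative and a median of 0.32. The median over all tested genes was 0.12. FPKM counts sequenced fragments relative to transcript length and library size, and adding 1 shrinks the fold changes of low genes. In bulk muscle, fewer endothelial cells and less RNA per endothelial cell cannot be told apart. Over all genes 360 passed, 208 higher and 152 lower in Wannanhua, and the split was 138 higher and 200 lower after quantile normalization and 140 and 193 after median-of-ratios scaling. The total was 41 or 30 with Wannanhua 1 or 2 left out, and 190, 58 or 27 with Yorkshire 1, 2 or 3 left out. For the 8 genes the count was 0 under each of these omissions and with Wannanhua 3 left out.

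**Figure D1:**
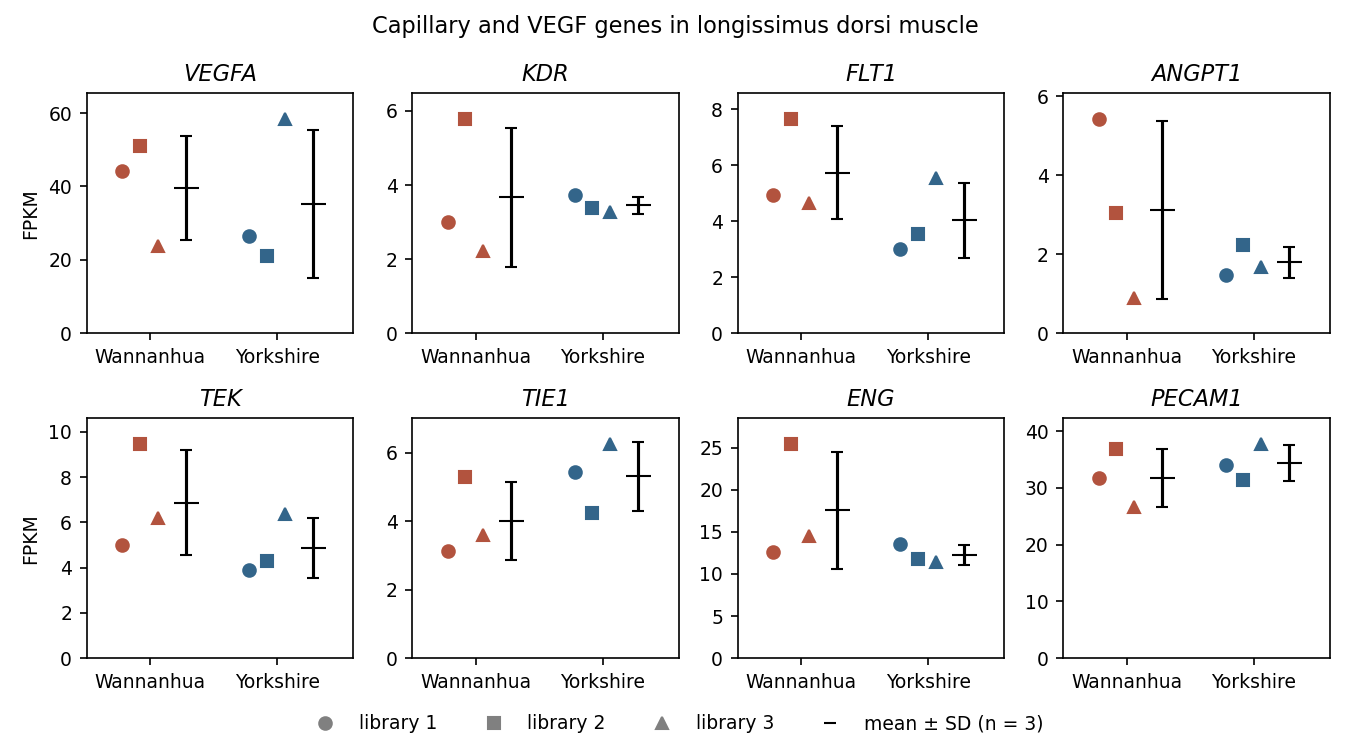
FPKM of the 8 capillary and VEGF genes in each library, Wannanhua to the left of Yorkshire; symbols mark the library number and black bars the mean ± SD of 3 libraries. In every panel the Wannanhua and Yorkshire points overlap, and the highest Wannanhua point is library 2 in all panels but that of ANGPT1.

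By level per length, VEGFA and PECAM1 formed an upper set and TEK, FLT1, TIE1, KDR and ANGPT1 a lower set, with ENG between. VEGFA averaged 37.4 FPKM over the 6 libraries and PECAM1 33.1 FPKM, above 85.1% and 83.4% of tested genes. VEGFA was the higher of the pair in 3 of 6 libraries, so their order was not fixed. ENG followed at 14.9 FPKM, below PECAM1 and above TEK in all 6 libraries. TEK averaged 5.87, FLT1 4.88, TIE1 4.65, KDR 3.56 and ANGPT1 2.46 FPKM. The ranges of neighbours in this lower set overlapped, although TEK exceeded FLT1 in 6 of 6 libraries. ANGPT1 lay above 20.8% of tested genes and rested on the smallest read support, with scaled counts of 18.2 to 99.2. The scaled counts of the other 7 ranged from 172 for TIE1 in Wannanhua 1 to 2410 for PECAM1 in Wannanhua 2.

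Among the ligands, VEGFA (ENSSSCG00000001695) varied more within each breed than between them. It measured 44.2, 51.0 and 23.7 FPKM in Wannanhua libraries 1 to 3, against 26.5, 21.0 and 58.3 FPKM in Yorkshire libraries 1 to 3. The highest of the 6 libraries was Yorkshire 3, which stood 2.78-fold above Yorkshire 2. The means were 39.6 ± 14.2 FPKM in Wannanhua and 35.3 ± 20.2 FPKM in Yorkshire (SD, n = 3 each). The log2 fold change was 0.23 ± 0.42 (SE; 95% interval -0.76 to 1.22; limma adjusted p = 0.78), and it was -0.06 without Yorkshire 2. An interval of this width covers a difference of 1 on the log2 scale in favour of Wannanhua.

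ANGPT1 (ENSSSCG00000006035), the activating ligand of TEK, was the most uneven of the 8 within Wannanhua. It measured 5.42, 3.05 and 0.91 FPKM in Wannanhua libraries 1 to 3, against 1.48, 2.24 and 1.67 FPKM in Yorkshire libraries 1 to 3. Wannanhua held both the highest and the lowest library, a 5.98-fold range, against 1.51-fold within Yorkshire. The log2 fold change of 0.40 ± 0.41 (SE; limma adjusted p = 0.60) rested on Wannanhua 1: without that library it was -0.00033, and without Wannanhua 3 it was 0.88 (limma adjusted p = 0.13).

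KDR (ENSSSCG00000008844), the main signalling receptor for VEGFA, had almost equal means in the breeds. It measured 3.004, 5.78 and 2.22 FPKM in Wannanhua libraries 1 to 3, against 3.72, 3.37 and 3.28 FPKM in Yorkshire libraries 1 to 3. The Yorkshire libraries lay close together, and the Wannanhua libraries lay on both sides of them. KDR had a log2 fold change of -0.01 ± 0.28 (SE; 95% interval -0.66 to 0.65; limma adjusted p = 0.99). It was 0.07 without Wannanhua 1, -0.31 without Wannanhua 2, 0.23 without Wannanhua 3 and 0.04 without Yorkshire 1, so its sign was not stable.

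FLT1 (ENSSSCG00000009320), the second VEGFA receptor, stood at 4.92, 7.64 and 4.63 FPKM in Wannanhua libraries 1 to 3. In Yorkshire libraries 1 to 3 the levels were 2.998, 3.56 and 5.53 FPKM. Only Yorkshire 3 reached into the Wannanhua range. In the fit its log2 fold change was 0.43 ± 0.26 (SE; 95% interval -0.18 to 1.03; limma adjusted p = 0.38). Without Yorkshire 3 it was 0.63, with an unadjusted p of 0.0488 and a limma adjusted p of 0.30.

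TEK (ENSSSCG00000005122), the angiopoietin receptor, measured 4.98, 9.46 and 6.18 FPKM in Wannanhua libraries 1 to 3, against 3.92, 4.31 and 6.38 FPKM in Yorkshire libraries 1 to 3. Yorkshire 3 was again the library that overlapped Wannanhua. Its log2 fold change was 0.41 ± 0.26 (SE; 95% interval -0.21 to 1.02; limma adjusted p = 0.40). TIE1 (ENSSSCG00000003950), the partner receptor, pointed the other way, at 3.14, 5.28 and 3.58 FPKM in Wannanhua libraries 1 to 3 against 5.42, 4.25 and 6.25 FPKM in Yorkshire libraries 1 to 3. Only Wannanhua 2 entered the Yorkshire range. The log2 fold change of TIE1 was -0.35 ± 0.22 (SE; 95% interval -0.87 to 0.18; limma adjusted p = 0.40).

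ENG (ENSSSCG00000005625), the endothelial co-receptor for BMP ligands, was high in 1 Wannanhua library. It measured 12.6, 25.4 and 14.6 FPKM in Wannanhua libraries 1 to 3, against 13.6, 11.8 and 11.4 FPKM in Yorkshire libraries 1 to 3. ENG had a log2 fold change of 0.43 ± 0.26 (SE; 95% interval -0.19 to 1.05; limma adjusted p = 0.39), and it was 0.14 without Wannanhua 2. PECAM1 (ENSSSCG00000017277), the junction protein, had the smallest standard error of the 8, at 31.7, 36.8 and 26.7 FPKM in Wannanhua libraries 1 to 3 and 34.0, 31.4 and 37.7 FPKM in Yorkshire libraries 1 to 3. Its log2 fold change was -0.12 ± 0.18 (SE; 95% interval -0.54 to 0.31; limma adjusted p = 0.74). Within each breed its highest library exceeded its lowest by 1.38-fold in Wannanhua and 1.20-fold in Yorkshire. The intervals of 3 of the 8 genes, KDR, PECAM1 and TIE1, lay wholly between -1 and 1 on the log2 scale. Those of the other 5 reached above 1. In RefSeq's table of build Sscrofa11.1 the spans of 4 of the 8 genes overlap another gene: ENG that of FPGS, TEK that of the protein-coding LOC102166359, PECAM1 that of an lncRNA and VEGFA that of a tRNA. The library kit does not mark strand, so reads shared with such neighbours cannot be told apart, and this holds for every value of TEK given here, ratios included. FPGS, an enzyme of folate metabolism, measured 2.19, 3.03 and 1.39 FPKM in Wannanhua libraries 1 to 3, against 2.29, 1.33 and 1.30 FPKM in Yorkshire libraries 1 to 3.

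**Figure D2:**
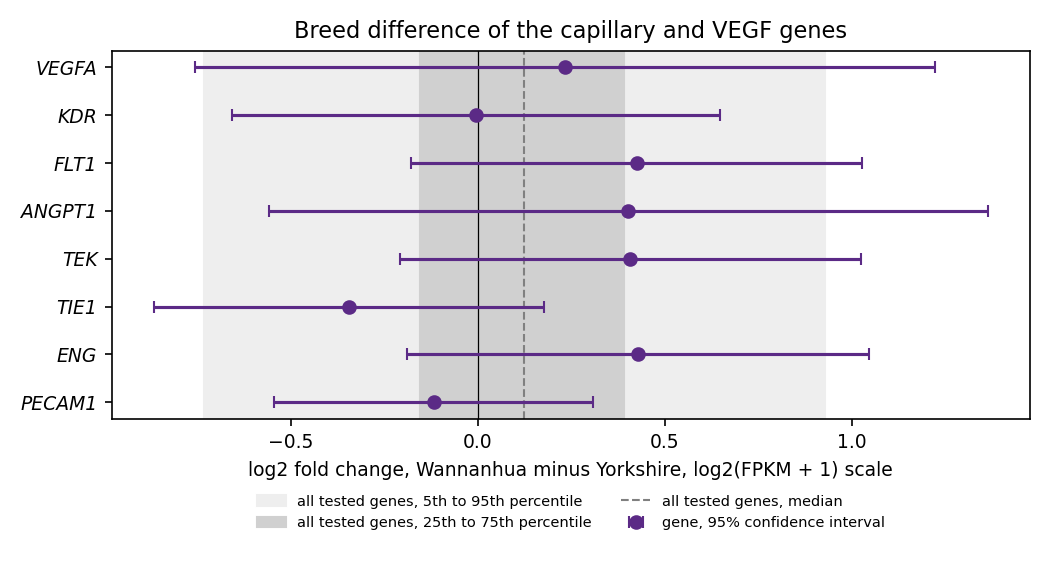
Log2 fold change (Wannanhua minus Yorkshire, log2(FPKM + 1) scale) of each capillary and VEGF gene with its 95% confidence interval from the limma fit, over grey bands for the 5th to 95th and 25th to 75th percentiles of all 11791 tested genes and a dashed line at their median of 0.12. All 8 intervals cross 0, and the 8 points lie between -0.35 and 0.43.

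No direction turned under quantile normalization, median-of-ratios scaling or scaled counts. The median over all tested genes moved by more than 0.1 with the scaling, to 0.00 after quantile normalization and 0.01 after median-of-ratios scaling. After quantile normalization the log2 fold changes were 0.19 for VEGFA, 0.25 for ANGPT1, -0.15 for KDR, 0.26 for FLT1, 0.25 for TEK, -0.49 for TIE1, 0.32 for ENG and -0.16 for PECAM1. TIE1 then had the smallest limma adjusted p of the 8, at 0.24. The scaled count per FPKM, which would be constant across libraries if each gene had a single fixed length, ranged by 1.02-fold for FLT1 to 1.14-fold for PECAM1 over the libraries, against a median of 1.08-fold over tested genes.

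Plain ratios of FPKM within a library, such as TEK to TIE1, do not depend on its depth. Of 9 ratios computed, that of TEK to TIE1 differed most between the breeds. TEK over TIE1 was 1.59, 1.79 and 1.73 in Wannanhua libraries 1 to 3, and 0.72, 1.01 and 1.02 in Yorkshire libraries 1 to 3. Every Wannanhua library lay above every Yorkshire library, by 1.87-fold between the mean log2 ratios (difference 0.90; exact two-sided permutation p = 0.10, the smallest this test allows with 3 against 3 libraries; 0.45 adjusted over 9 ratios). The difference in log2 ratio stayed between 0.74 and 0.99 when each library was left out in turn. The separation was not confined to TEK and TIE1. Of the 15 pairs among the 6 endothelial genes KDR, FLT1, PECAM1, TEK, TIE1 and ENG, 5 did not overlap between breeds. TIE1 was in 3 of those 5. These pairs share genes, and the share without overlap over gene pairs in general was not computed. Of single tested genes, 29.9% did not overlap.

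KDR over FLT1 was 0.61, 0.76 and 0.48 in Wannanhua libraries 1 to 3, and 1.24, 0.95 and 0.59 in Yorkshire libraries 1 to 3. These overlapped (difference in log2 ratio -0.55; exact two-sided permutation p = 0.30, and 0.45 adjusted over 9 ratios). ANGPT1 over TEK, the ligand against its receptor, averaged the same log2 ratio of -1.43 in both breeds, with an SD of 1.46 in Wannanhua and 0.49 in Yorkshire (n = 3 each; exact permutation p = 1.0). The remaining 6 ratios set each endothelial gene against the mean log2(FPKM + 1) of 19 other endothelial markers. The added 1 lets these 6 shift with the scaling of a library. TIE1 was the one whose libraries did not overlap, at -0.63 ± 0.06 in Wannanhua and -0.17 ± 0.26 in Yorkshire on the log2 scale (SD, n = 3 each; exact two-sided permutation p = 0.10, and 0.45 adjusted over 9 ratios). With the median of the markers in place of their mean this p was 0.30.

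**Figure D3:**
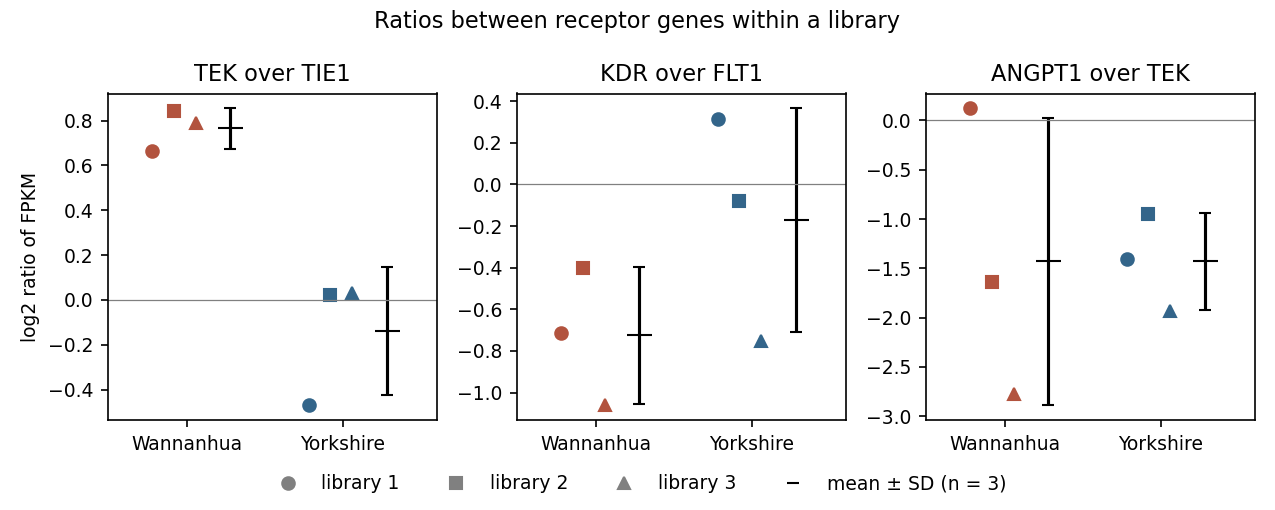
Log2 ratio of FPKM within each library for TEK over TIE1, KDR over FLT1 and ANGPT1 over TEK, Wannanhua left of Yorkshire; symbols mark library numbers and black bars the mean ± SD of 3 libraries. The 3 Wannanhua points of TEK over TIE1 lie between 0.67 and 0.84, above all 3 Yorkshire points, and the other panels overlap.

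Wannanhua 2 stood high in most endothelial genes. It was the highest of the 6 libraries in 4 of the 6 endothelial genes of the group and in 11 of the 19 other endothelial markers tested, against 27.0% of all tested genes. Relative to the mean of Wannanhua 1 and 3, it was higher by a median of 0.63 on the log2 scale in the 6 genes and 0.48 in the 19 markers, against 0.09 over all tested genes. After median-of-ratios scaling these medians were 0.50 and 0.34, against -0.03 over all tested genes. It was then the highest library in 4 of the 6 genes and 5 of the 19 markers, against 15.4% of all tested genes. The rise of Wannanhua 2 over Wannanhua 1 and 3 was not particular to these endothelial genes. Before that scaling its median was 0.47 in 8 pericyte and smooth muscle markers, 0.67 in 3 lymphatic markers and 1.01 in 6 slow-fibre genes. In 6 leukocyte markers it was 0.12, and in 4 fibroblast markers -0.05. Summed over the 22 other endothelial markers with a row, FPKM was 168, 233 and 184 in Wannanhua libraries 1 to 3. In Yorkshire libraries 1 to 3 the sums were 190, 172 and 170. Of 6 slow-fibre genes, which include CSRP3 and ANKRD2 beside contractile genes, Wannanhua 2 was the highest library in 4, and in 3 after median-of-ratios scaling. The summed FPKM of these slow-fibre genes was 41090, 43750 and 11090 in Wannanhua libraries 1 to 3, and 17360, 5681 and 10120 in Yorkshire libraries 1 to 3. Wannanhua 1 stood near Wannanhua 2 in slow-fibre genes. Its sum of the endothelial markers was the lowest by a narrow margin, at 168 against 170 in Yorkshire 3. Single genes weighed on that sum. PALMD measured 11.3 FPKM in Wannanhua 1 and 22.0 to 40.95 FPKM in the other libraries. RASIP1 went the other way, at 42.5 FPKM in Wannanhua 1 and 18.1 to 28.4 FPKM in the others. The part of fibre type in these values was not tested.

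**Figure D4:**
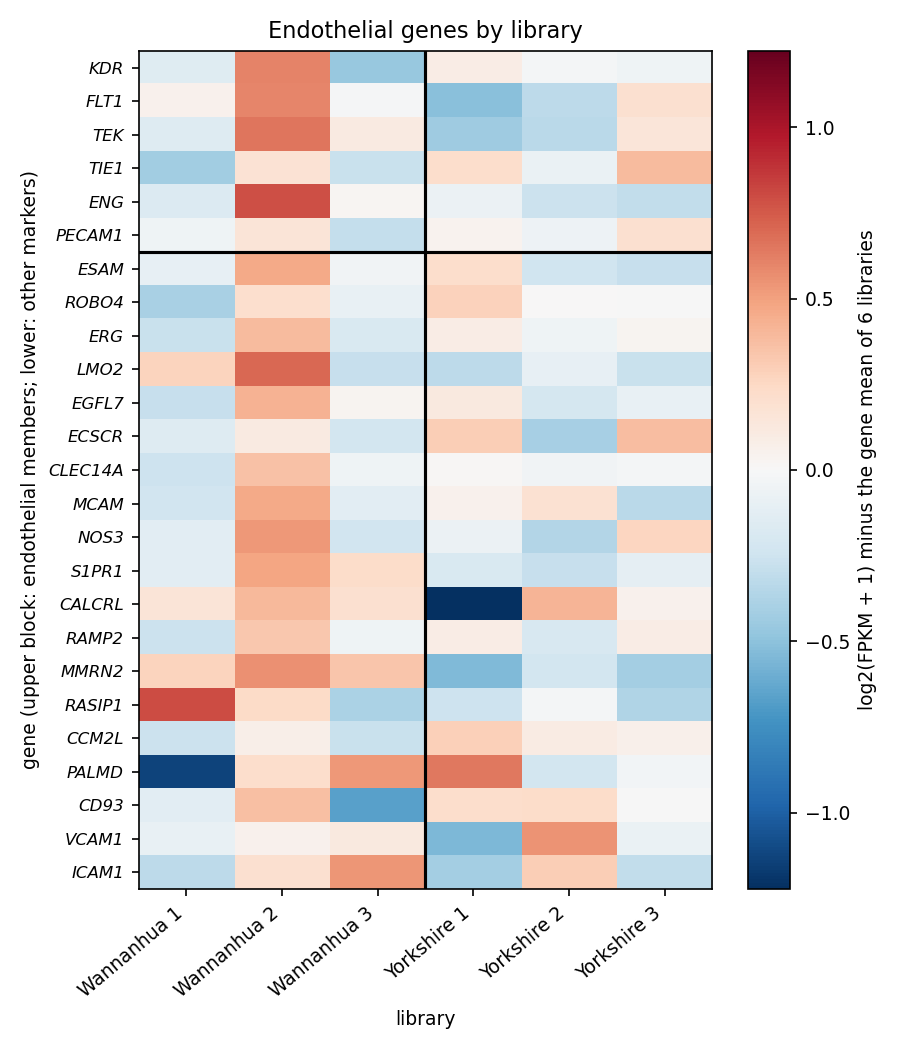
Log2(FPKM + 1) of 6 endothelial genes of the group (above the line) and 19 other endothelial markers (below), minus each gene's mean over the 6 libraries, with Wannanhua libraries left of Yorkshire. Wannanhua 2 is red in most rows, and was the highest library in 4 of the 6 and 11 of the 19.

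The endothelial label could be checked only in part. Of 13 defining endothelial markers, 9 had a row, among them the 6 endothelial genes of the group itself. The lowest value of any of the 9 in any library was 2.22 FPKM, that of KDR in Wannanhua 3. In whole muscle such values do not show which cells the reads came from. Over the 19 other endothelial markers tested, 0 passed in limma and 1 stood at an unadjusted p under 0.05, against 22.1% of all tested genes. Of the 19, 13 were positive and 6 negative, and the median log2 fold change was 0.07 against 0.12 over all tested genes. The marker with that unadjusted p was MMRN2, a matrix glycoprotein of endothelium, named after its values were seen. It measured 2.16, 2.85 and 2.32 FPKM in Wannanhua libraries 1 to 3, against 0.80, 1.23 and 0.96 FPKM in Yorkshire libraries 1 to 3 (log2 fold change 0.78 with an SE of 0.18, limma adjusted p = 0.061). The limma fit on scaled counts gave MMRN2 an adjusted p of 0.0365; the smallest and largest over its 14 alternatives were 0.0365 and 0.20. In the same RefSeq table the span of MMRN2 overlaps BMPR1A, a BMP receptor with higher levels, so that the unmarked strand bears on MMRN2 too. BMPR1A measured 21.3, 18.1 and 20.7 FPKM in Wannanhua libraries 1 to 3, against 9.94, 19.6 and 12.1 FPKM in Yorkshire libraries 1 to 3. Its log2 fold change had the same sign as that of MMRN2, at 0.55 (limma adjusted p = 0.25), and its part in the values of MMRN2 was not tested.

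Among the partners of the VEGF receptors, 0 of 3 tested family ligands and co-receptors passed in limma, and 0 had an unadjusted p under 0.05. NRP1, a co-receptor that brings VEGFA to KDR, averaged 11.8 ± 3.01 FPKM in Wannanhua and 8.70 ± 2.16 FPKM in Yorkshire (SD, n = 3 each; limma adjusted p = 0.40). VEGFC, the main lymphatic growth factor, averaged 1.29 FPKM in Wannanhua and 1.23 FPKM in Yorkshire. Of 15 tested genes of VEGF receptor signalling, 0 passed in limma. At an unadjusted p under 0.05 stood 3 higher and 3 lower, against 14.6% and 7.53% of all tested genes. In that list 1 gene passed under 3 alternatives, and both such genes were named after their values were seen. SHB, an adaptor protein bound by KDR, was lower in Wannanhua after quantile normalization and after median-of-ratios scaling (limma adjusted p = 0.0278 and 0.0312, against 0.0527 as reported). PTPN11, the phosphatase SHP2, was higher in Wannanhua with a filter at 5 FPKM (limma adjusted p = 0.0460, against 0.0587 as reported). Of 16 tested partners of endothelial junctions, 0 passed and 0 had an unadjusted p under 0.05. The 8 tested genes of the endoglin pathway and the 6 of endothelial Notch signalling likewise had 0 past the threshold, with 0 and 1 at an unadjusted p under 0.05.

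Among the angiopoietin partners, 0 of 4 passed in limma, and 1 had an unadjusted p under 0.05, against 22.1% of all tested genes. That partner was ANGPT2, the second angiopoietin, which can oppose ANGPT1 at TEK, named after its values were seen. ANGPT2 (ENSSSCG00000015753) measured 0.60, 0.57 and 0.29 FPKM in Wannanhua libraries 1 to 3, against 1.29, 1.48 and 1.61 FPKM in Yorkshire libraries 1 to 3. All Wannanhua libraries lay below all Yorkshire libraries, and 29.9% of tested genes showed no overlap in either direction. The mean was 3.001-fold higher in Yorkshire. ANGPT2 met the filter of 1 FPKM in at least 3 libraries only through the Yorkshire libraries. All its Wannanhua values lay under 1 FPKM. Its lack of overlap therefore followed from passing the filter, and its limma p-values are given as description only. Its scaled counts were 58.9, 63.0 and 32.2 in Wannanhua libraries 1 to 3, and 150, 165 and 176 in Yorkshire libraries 1 to 3. ANGPT2 had a log2 fold change of -0.73 ± 0.17 (SE; limma adjusted p = 0.069), and -1.71 on scaled counts (adjusted p = 0.0301); over its 14 alternatives the adjusted p ran from 0.0301 to 0.22. In RefSeq's table ANGPT2 overlaps MCPH1, which stood at 2.42, 2.24 and 2.98 FPKM in Wannanhua libraries 1 to 3 and 2.495, 2.54 and 3.01 FPKM in Yorkshire libraries 1 to 3 (limma adjusted p = 0.88). PTPRB, the phosphatase that restrains TEK, averaged 4.67 ± 1.52 FPKM in Wannanhua and 4.45 ± 1.49 FPKM in Yorkshire (SD, n = 3 each; limma adjusted p = 0.92).

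Of 11 tested genes of oxygen sensing and VEGFA control, 9 were positive and 0 passed in limma. An unadjusted p under 0.05 was held by 0 of them, against 22.1% of all tested genes. PPARGC1A, a coactivator that induces VEGFA in muscle, measured 5.84, 6.81 and 5.09 FPKM in Wannanhua libraries 1 to 3, against 1.26, 2.57 and 26.6 FPKM in Yorkshire libraries 1 to 3 (limma adjusted p = 0.92). Both PPARGC1A and VEGFA were highest in Yorkshire 3, but PPARGC1A was lowest in Yorkshire 1 and VEGFA in Yorkshire 2. PPARGC1A was named after its values were seen, and its part in the VEGFA levels was not tested. HIF1A and EPAS1, the oxygen-sensitive subunits of hypoxia-inducible factor, had log2 fold changes of 0.29 and 0.31 (limma adjusted p = 0.43 and 0.55). Among 8 tested hypoxia targets, 1 was lower in Wannanhua past the threshold and 0 were higher, against 1.29% and 1.76% of all tested genes. At an unadjusted p under 0.05 in limma stood 1 higher and 1 lower, against 14.6% and 7.53%. The libraries of 3 of the 8 did not overlap between breeds, against 29.9% of all tested genes. The gene past the threshold was ANKRD37, an ankyrin-repeat gene induced under low oxygen. ANKRD37 measured 2.25, 1.54 and 0.91 FPKM in Wannanhua libraries 1 to 3, against 4.47, 4.49 and 5.70 FPKM in Yorkshire libraries 1 to 3 (log2 fold change -1.22 with an SE of 0.23, limma adjusted p = 0.0434). That call was lost without each library in turn, with adjusted p from 0.0560 without Wannanhua 3 to 0.16 without Yorkshire 3 (0.0896 without Wannanhua 1, 0.14 without Wannanhua 2, 0.0670 without Yorkshire 1 and 0.11 without Yorkshire 2). It was also lost with a pseudocount of 0.1 (0.0560), with no filter (0.0707) and with the replicate block (0.0708). PDK1, a kinase that limits entry of pyruvate into mitochondria, pointed the other way just short of the threshold, and is named after its values were seen. It measured 28.6, 25.1 and 10.9 FPKM in Wannanhua libraries 1 to 3, against 4.67, 6.66 and 5.77 FPKM in Yorkshire libraries 1 to 3. Its libraries did not overlap between breeds, and its log2 fold change was 1.66 with an SE of 0.35 (limma adjusted p = 0.0527). PDK1 passed without Wannanhua 3 (0.00663), on scaled counts (0.0402) and with a filter at 5 FPKM (0.0453). The adjusted p of PDK1 reached 0.18 without Wannanhua 2.

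By pattern over the 6 libraries, the named genes nearest to VEGFA were ADGRF5, PGAM1 and UQCRC2. Their profiles of log2(FPKM + 1), each centred on its mean, differed from that of VEGFA by a root mean square of 0.29, 0.30 and 0.30, against a median of 0.64 over 4356 genes with a symbol and a mean of at least 5 FPKM. ADGRF5, an adhesion receptor known from lung and endothelial cells, was at 16.99, 29.0 and 14.3 FPKM in Wannanhua libraries 1 to 3 and 12.9, 12.6 and 21.5 FPKM in Yorkshire libraries 1 to 3. PGAM1 is a phosphoglycerate mutase of glycolysis and UQCRC2 a core protein of respiratory complex III. None of these 3 passed in limma (adjusted p = 0.58, 0.42 and 0.28).

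Markers of the other cells in or around vessels are given beside these values, and their part in them was not tested. Of all tested genes 22.1% had an unadjusted p under 0.05, 14.6% higher and 7.53% lower in Wannanhua. The counts of markers below stand against those shares. Of 8 tested pericyte and smooth muscle markers, 0 passed in limma and 1 had an unadjusted p under 0.05, with a median log2 fold change of 0.25. The summed level of the 10 such markers with a row ranged from 107 to 258 FPKM in Wannanhua and from 117 to 156 FPKM in Yorkshire. Of 3 tested lymphatic markers, 0 passed in limma and 2 had an unadjusted p under 0.05, both higher in Wannanhua. These were PROX1, a lymphatic transcription factor also active in slow muscle fibres, and LYVE1, a hyaluronan receptor also found on macrophages (limma adjusted p = 0.12 and 0.096; both named after their values were seen). Without Wannanhua 3, PROX1 passed (limma adjusted p = 0.0277). PDPN, the remaining tested lymphatic marker, went the other way (log2 fold change -0.17, limma adjusted p = 0.80). FLT4, the lymphatic VEGF receptor, stayed at or below 0.24 FPKM in every library. HBB, the beta chain of haemoglobin and a measure of blood left in the tissue, measured 141, 116 and 42.9 FPKM in Wannanhua libraries 1 to 3, against 93.1, 15.5 and 18.0 FPKM in Yorkshire libraries 1 to 3. It did not pass in limma (adjusted p = 0.26). The 6 leukocyte, 4 fibroblast and 2 adipocyte markers tested had 0 past the threshold in limma, with 0, 1 and 0 at an unadjusted p under 0.05. The fibroblast marker was COL3A1, a fibrillar collagen named after its values were seen. It measured 103, 86.6 and 79.1 FPKM in Wannanhua libraries 1 to 3, against 88.5, 319 and 226 FPKM in Yorkshire libraries 1 to 3 (log2 fold change -1.05, limma adjusted p = 0.21). Without Yorkshire 1 COL3A1 passed, lower in Wannanhua (log2 fold change -1.58, limma adjusted p = 0.0345). The median of the 4 fibroblast markers was -0.23 on the log2 scale, with -0.47 without Yorkshire 1 and -0.0017 without Yorkshire 2. Likewise 0 passed of the 6 tested secreted inhibitors of vessel growth, with 1 at an unadjusted p under 0.05, and 0 of the 2 tested genes of capillary transport, with 0.

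Genes of fibre type had larger log2 fold changes, in lists that were chosen with earlier results of these data known. The 6 tested slow-fibre genes were all positive, with a median log2 fold change of 1.47, and the 4 tested fast-fibre genes were all negative, with a median of -1.28. The slow sarcomere genes TNNC1, TNNI1, TNNT1 and MYL3 did not pass (limma adjusted p = 0.20 to 0.32) and overlapped between breeds. In each of these 4 genes Wannanhua 1 and 2 lay above all Yorkshire libraries, and Wannanhua 3 lay below Yorkshire 1. TNNC1, slow troponin C, measured 14970, 18170 and 4240 FPKM in Wannanhua libraries 1 to 3, against 7577, 2612 and 4301 FPKM in Yorkshire libraries 1 to 3. Past the limma threshold stood ANKRD2 and CSRP3 higher and CASQ1 lower in Wannanhua. Of the capillary and VEGF genes 0 of 8 stood past it, and of all tested genes 3.05%. ANKRD2, a stretch-responsive ankyrin-repeat protein, averaged 446 ± 140.4 FPKM in Wannanhua and 64.0 ± 18.2 FPKM in Yorkshire (SD, n = 3 each). CSRP3, the muscle LIM protein, averaged 1708 ± 890.2 FPKM in Wannanhua and 135 ± 119 FPKM in Yorkshire. CASQ1, which binds calcium in the store of fast fibres, averaged 1552 ± 310.3 FPKM in Wannanhua and 3646 ± 447 FPKM in Yorkshire. These calls were lost without some libraries: CSRP3 without Wannanhua 1 or 2 or Yorkshire 2 or 3 (adjusted p = 0.14, 0.13, 0.10 and 0.14), ANKRD2 without Wannanhua 1 or 2 or Yorkshire 3 (0.0517, 0.0753 and 0.0556), and CASQ1 without each library but Wannanhua 3 (0.0567 without Yorkshire 1 to 0.17 without Yorkshire 3). With no filter CSRP3 and CASQ1 were lost (0.0687 and 0.0702), and CASQ1 was also lost after quantile normalization (0.11), with the replicate block (0.0743) and, barely, after median-of-ratios scaling (0.05003). The difference between fibre-type and capillary genes was not itself tested.

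**Figure D5:**
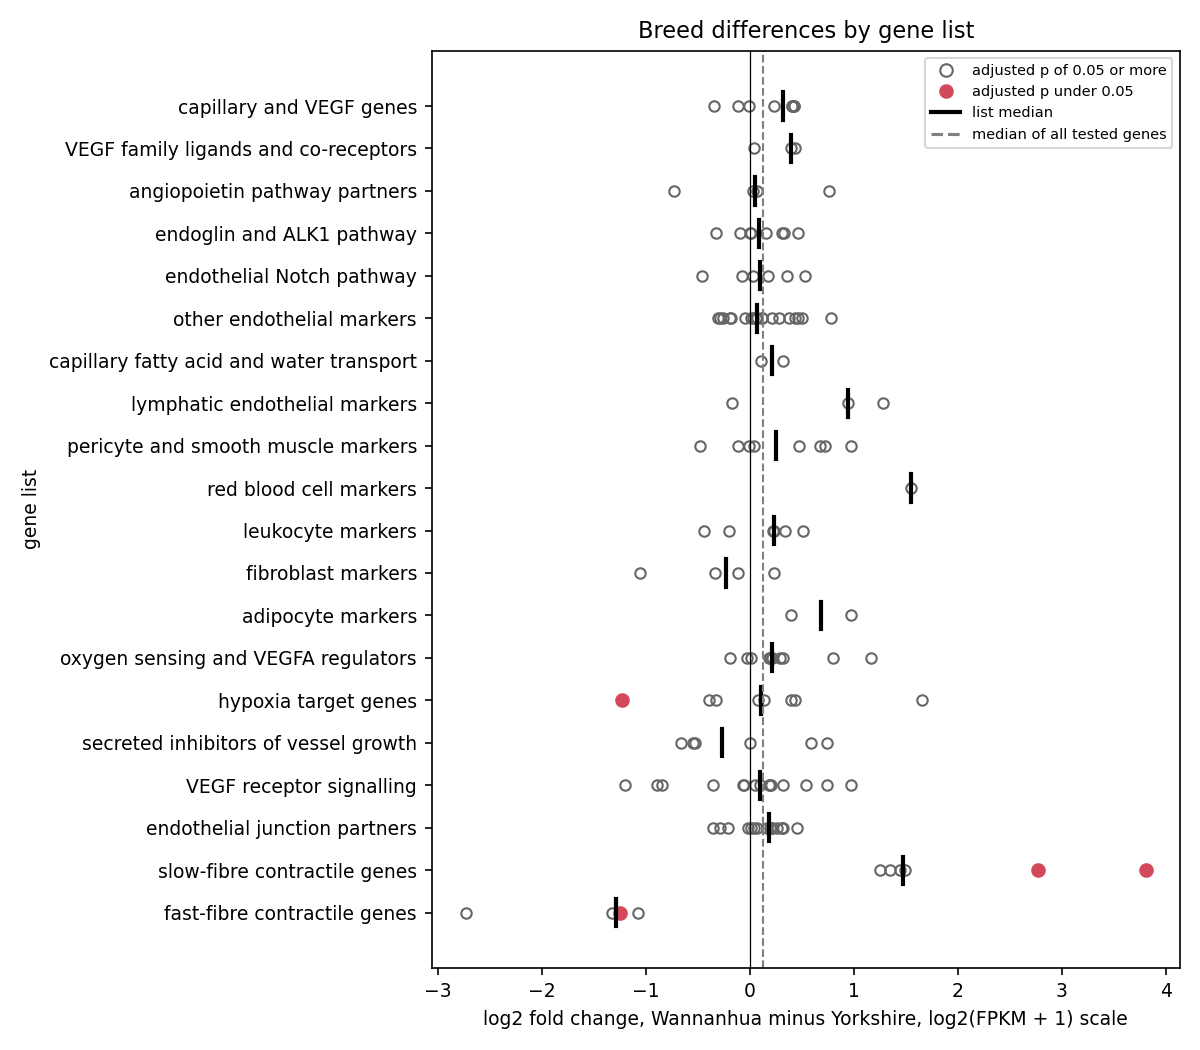
Log2 fold change (Wannanhua minus Yorkshire, log2(FPKM + 1) scale) of every tested gene in the capillary and VEGF group and in each companion list; filled points passed an adjusted p of 0.05 in limma, black ticks are list medians and the dashed line is the median of all tested genes, 0.12. No capillary or VEGF gene is filled, and the 4 filled points are ANKRD37, ANKRD2, CSRP3 and CASQ1.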

How the data were processed

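Poly-A RNA libraries of longissimus dorsi muscle were read in pairs, per the labels' protocols, with a kit that does not mark strand. CASAVA 1.7, TopHat2 2.0.6 and build Sscrofa10.2 appear, with no role, in the submitters' processing notes. Not given in the sources used here are the read counter and the annotation. The authors deposited FPKM and, under a heading of counts, a signal that is not whole numbers and is treated as scaled counts, totalling 16373268 to 19251335 per library. Symbols came from a table that matched 10384 of 17627 identifiers (58.9%).

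Samples were grouped by breed label. The test was limma 3.58.1 in R 4.3.3 on log2(FPKM + 1), breed as the only term, trend and robust settings, Benjamini-Hochberg adjustment, for 11791 genes at 1 FPKM or more in at least 3 libraries. The 7 abundant genes that reached 10000 scaled counts in a library and were listed at 0 in another were left out. The fit was tested on simulated data. Ratios used exact permutation tests in scipy 1.17.1. A principal component held 45.7% of the variance and separated the breeds.

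The genes and lists were chosen with earlier results of these data known. Named were all members, up to 4 genes past the threshold per list and the 3 genes nearest to VEGFA; CDH5, also planned there, had no row. Other companion genes named fall outside that rule and were chosen after their values were seen. Alternatives were another pseudocount (0.1), no filter or 5 FPKM, plain limma, quantile normalization, the replicate block, each library left out and the 7 genes kept; median-of-ratios scaling and scaled counts were added after seeing the data. VEGFA over VEGFB and sequence comparisons were not analysed here.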

Additional observations from a re-analysis of the deposited data

How the results depend on the processing

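For the 8 capillary and VEGF genes, 0 passed under each alternative run; at an unadjusted p under 0.05 stood 1 without Wannanhua 3 (ANGPT1) and 1 without Yorkshire 3 (FLT1). Of all genes, 360 passed as reported, 69 with no filter, 205 with the replicate number as a block and 27 to 524 with each library left out. Same-numbered libraries deviated together with correlations of 0.101, -0.012 and 0.107, against -0.134 to 0.021 for differently numbered libraries of the 2 breeds. These small values do not settle whether the numbers pair libraries. No label states a pairing, so the replicate number was used only as an alternative. Directions turned for VEGFA (-0.060 to 0.66 over the libraries left out), KDR (-0.31 to 0.23), ANGPT1 (-0.00033 to 0.88), the log2 ratio of ANGPT1 to TEK (-0.78 to 0.67, and -0.0077 on scaled counts) and KDR against the other endothelial markers (-0.28 to 0.065); the cause was not tested, and none of these passed a threshold as reported. FLT1, TEK, ENG, TIE1 and PECAM1 kept their direction under each alternative run. With a filter at 5 FPKM, KDR, FLT1 and ANGPT1 were not tested. The planned count tests with TMM and median-of-ratios factors, and ratios of recovered reads, were not run, since whole reads were not taken as recovered from the scaled counts. ANGPT1 and ANGPT2 are limited by few reads.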
